A study of Mus musculus with 2 samples.

Results

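The peaks described here are those listed for the IgG reaction of a CUT&Tag experiment that share no base with any peak listed for the ALKBH5-FLAG reaction. They number 1535 of the 3373 IgG peaks on chromosomes 1 to 19, X and Y, or 45.5%. Members were chosen by the overlap of the 2 peak lists, so their lack of an ALKBH5 peak is the choice itself and not a result. The study has 2 libraries. Both were made from Hepa1-6, a line grown from a mouse liver tumour, after an overnight infection with ad-FLAG-ALKBH5, an adenovirus that makes FLAG-tagged ALKBH5. The groups are the ALKBH5-FLAG reaction and the IgG reaction, with 1 library each, so both groups share the virus and the cell line and differ in the antibody. The labels are not uniform, since primary hepatocytes are named in the series text but Hepa1-6 for each sample, and ALKBH6-FLAG is the treatment given for IgG although its protocol has ALKBH5. With 1 library per group no difference could be tested, and each interval below is a 95% exact binomial interval that covers counting error within these libraries only. Fragments carried no molecular identifiers that the sources describe, so fragments that share a position may be copies of 1 molecule.

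In CUT&Tag, an antibody bound to chromatin recruits a fusion of protein A with the transposase Tn5, which cuts nearby DNA and tags it for sequencing. An IgG antibody has no chosen target, so the DNA recovered with it shows where Tn5 cuts without one, which is known to favour open chromatin such as active promoters. ALKBH5 is an enzyme that removes the methyl group of N6-methyladenosine from RNA. A peak caller can report a peak wherever fragments stack above the local background, also where the stack holds few fragments.

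Of the 1535 peaks, 62 reached into a promoter of a protein-coding gene, taken as the 250 bases before to 50 bases after a transcript start in RefSeq (GRCm38.p6), and they touched 77 promoters of 71 genes. The promoters touched were 0.362% of the 21262 protein-coding promoters listed. The 6 printed here belong to the peaks of highest fold enrichment with at least 50 bases in a promoter and they show what kind of promoter DNA these peaks cover. Each is written 5′ to 3′ on the gene's strand, and capitals mark the bases that lie inside the IgG-only peak.
Dexi, chr16:10543005-10543304, minus strand: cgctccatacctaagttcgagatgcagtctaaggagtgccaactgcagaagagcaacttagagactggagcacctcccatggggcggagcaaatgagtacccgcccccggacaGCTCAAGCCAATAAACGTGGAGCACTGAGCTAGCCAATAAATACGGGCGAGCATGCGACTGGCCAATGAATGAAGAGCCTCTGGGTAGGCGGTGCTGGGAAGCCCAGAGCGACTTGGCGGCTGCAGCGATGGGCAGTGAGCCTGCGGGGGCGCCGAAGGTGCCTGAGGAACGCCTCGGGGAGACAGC
Zfp184, chr13:21944844-21945143, plus strand: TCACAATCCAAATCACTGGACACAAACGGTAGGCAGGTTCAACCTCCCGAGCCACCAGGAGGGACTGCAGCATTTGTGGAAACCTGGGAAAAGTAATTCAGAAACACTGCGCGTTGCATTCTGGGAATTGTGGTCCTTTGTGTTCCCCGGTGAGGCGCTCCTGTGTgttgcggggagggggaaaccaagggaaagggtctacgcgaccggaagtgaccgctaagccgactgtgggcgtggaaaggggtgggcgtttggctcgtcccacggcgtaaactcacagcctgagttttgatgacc
Sdhd, chr9:50603800-50604099, minus strand: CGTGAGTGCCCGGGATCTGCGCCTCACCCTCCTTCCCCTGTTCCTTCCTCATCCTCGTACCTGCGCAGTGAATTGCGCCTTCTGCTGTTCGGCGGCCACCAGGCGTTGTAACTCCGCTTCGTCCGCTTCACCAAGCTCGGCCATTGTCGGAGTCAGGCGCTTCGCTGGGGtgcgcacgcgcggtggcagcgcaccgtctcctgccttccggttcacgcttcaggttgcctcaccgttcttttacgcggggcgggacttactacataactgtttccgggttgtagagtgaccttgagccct
Mtf2, chr5:108065424-108065723, plus strand: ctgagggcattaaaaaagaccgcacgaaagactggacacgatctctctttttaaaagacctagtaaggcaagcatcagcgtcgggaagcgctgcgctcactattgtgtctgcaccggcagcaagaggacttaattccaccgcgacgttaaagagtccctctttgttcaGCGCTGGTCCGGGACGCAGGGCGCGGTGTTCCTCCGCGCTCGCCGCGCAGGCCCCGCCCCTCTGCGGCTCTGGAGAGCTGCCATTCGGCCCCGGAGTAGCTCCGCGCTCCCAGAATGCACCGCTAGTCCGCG
Clcn7, chr17:25133141-25133440, plus strand: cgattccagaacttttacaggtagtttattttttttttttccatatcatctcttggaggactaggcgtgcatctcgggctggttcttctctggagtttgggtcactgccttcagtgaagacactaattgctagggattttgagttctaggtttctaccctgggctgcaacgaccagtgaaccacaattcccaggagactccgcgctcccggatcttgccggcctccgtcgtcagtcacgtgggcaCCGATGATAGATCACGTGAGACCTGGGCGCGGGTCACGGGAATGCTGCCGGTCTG
Isg20, chr7:78913515-78913814, plus strand: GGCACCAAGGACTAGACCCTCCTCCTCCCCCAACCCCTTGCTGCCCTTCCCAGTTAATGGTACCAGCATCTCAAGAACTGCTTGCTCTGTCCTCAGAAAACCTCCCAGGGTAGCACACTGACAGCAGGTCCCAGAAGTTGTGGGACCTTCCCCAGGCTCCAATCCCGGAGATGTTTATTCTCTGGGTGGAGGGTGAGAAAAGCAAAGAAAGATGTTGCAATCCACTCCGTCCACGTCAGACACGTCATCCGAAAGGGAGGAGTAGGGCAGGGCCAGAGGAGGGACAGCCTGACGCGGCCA

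The Dexi peak at 10542930 to 10543191 covered 187 of the 300 bases, including the transcript start, and 13 of the promoter's 18 CpG dinucleotides. It had a pileup of 7 fragments and a fold of 6.29, and an ALKBH5 peak lay 49 bp away. The peak at Zfp184, which encodes a zinc finger protein, had a pileup of 6 and covered the upstream 166 bases, with an ALKBH5 peak 12 bp away. The other 4 had no ALKBH5 peak so near. Sdhd encodes a membrane anchor of succinate dehydrogenase, complex II of the respiratory chain. Its peak (pileup 5, fold 5.33) covered 170 bases and 16 of 29 CpGs, reached 21 bases into the promoter of its divergent neighbour Timm8b, a mitochondrial import factor, and lay 12812 bp from the nearest ALKBH5 peak. Mtf2, a Polycomb-like partner of the PRC2 complex, had a peak of the same height and fold over 132 bases and 19 of 30 CpGs, with the nearest ALKBH5 peak 60307 bp away. Clcn7, a lysosomal chloride transporter, had one of the same height over the last 55 bases, 17348 bp from an ALKBH5 peak. At Isg20, an interferon-induced exonuclease, all 300 bases lay in the peak (pileup 6, fold 5.24), and the promoter held 7 CpGs.

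IgG-only peaks were low. Their median pileup, the number of fragments stacked at the summit in the authors' list, was 3 (interquartile range 2 to 5, highest 62), beside 6 (5 to 9) for the 1838 IgG peaks shared with ALKBH5. A pileup of 2 was found in 420 members (27.4%), and 416 of them had the same fold of 2.88 and the same −log10 q of 1.57. The median fold enrichment, the authors' ratio of pileup to local background, was 3.76 (2.88 to 5.14) for members and 5.50 (4.53 to 7.07) for shared peaks. The median width was 215 bp (200 to 249) against 255 bp (217 to 342). In all, members covered 368659 bp.

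The share of IgG peaks without an ALKBH5 peak was lower at each step in height. It was 92.7% at a pileup of 2 (420 of 453 peaks, interval 89.9 to 94.9), 74.5% at 3 (70.5 to 78.2), 49.3% at 4 (45.1 to 53.5) and 31.8% at 5 to 7 (29.1 to 34.7). At 8 to 11 it was 18.1% (14.6 to 22.1), and at 12 or more 9.76% (32 of 328, 6.77 to 13.5). The lowest pileup in the IgG list was thus mostly a feature of the IgG-only peaks, and the highest mostly of the shared ones. The smallest background read from the files was 2 fragments in 10 kb in the IgG list and 6.44 in the ALKBH5 list. The lists thus have different floors, and the part of this in the split was not tested.

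**Figure D1:**
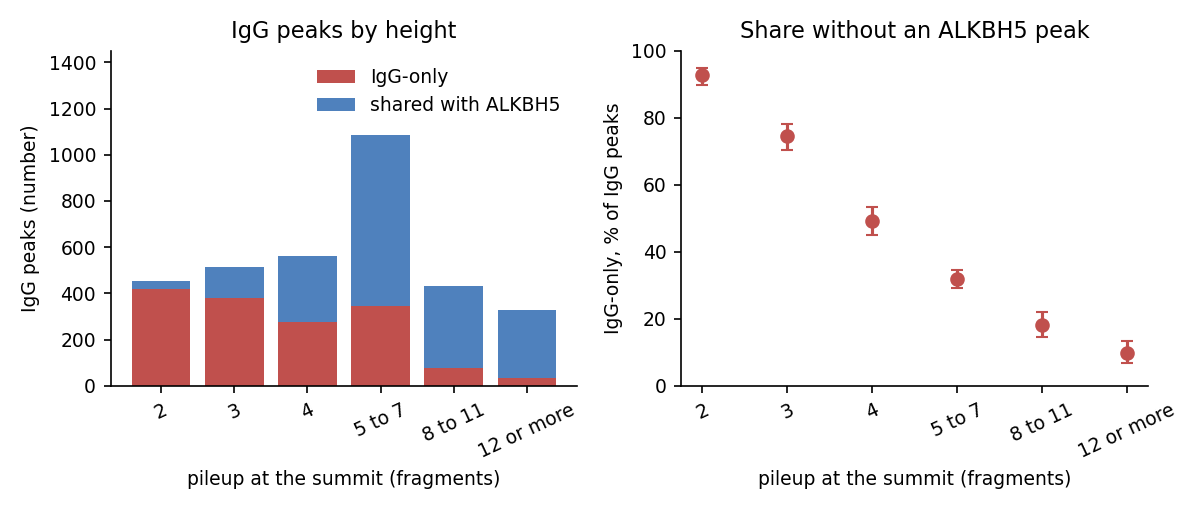
Left, number of IgG peaks by pileup at the summit in fragments, with IgG-only peaks in red and shared peaks in blue. Right, IgG-only peaks as a percent of all IgG peaks of that pileup, with 95% exact binomial intervals, which ran from 92.7% at a pileup of 2 to 9.76% at 12 or more.

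Many members were lone stacks, in which every fragment counted in the surrounding 10 kb lay at the summit. The authors' fold is the pileup plus 1 over the background plus 1, so the background can be recovered. In the IgG list 95.3% of backgrounds under 1 were whole multiples of 0.021, within 0.05 of a step, which is what 1 fragment extended to 210 bp would give in a 10 kb window. Read in this way, 765 members (49.8%, interval 47.3 to 52.4) held at the summit all the fragments of their window, where the same was true of 7.07% of shared IgG peaks (5.94 to 8.34) and 26.5% of the whole IgG list. Most of these lone stacks, 416, came from the 2-fragment peaks. At that height 99.0% of members and 100% of shared peaks were lone, and no window was read as above 2.5 fragments. Being lone was thus all but fixed for any 2-fragment peak in the list, and the shares over all heights carry this. Among members with a pileup above 2, 349 of 1115 (31.3%) were lone, against 5.37% of shared peaks above 2. At a pileup of 3 the shares were 37.2% and 4.58%, and at 5 to 7 they were 30.3% and 5.13%. The median member stacked 94.1% of its window's fragments at the summit and its window held 5 fragments, against 53.4% and 12 fragments for shared peaks and 27.6% and 31 fragments for ALKBH5-only peaks. The ALKBH5 value is bounded by its list, where no window was read as holding under 6.44 fragments. A peak of 6 or fewer could therefore not be read as a lone stack there, whatever its window held.

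The stacks were narrow. Median width was 212 bp for members with a pileup of 2, 214 bp at 3 and at 4, and 217 bp at 5 to 7. These medians were near the 210 bp read above for a single extended fragment. Members were as narrow as 190 bp, however, and a 2-fragment member on chromosome 13 was 335 bp wide. How widths follow from the extension was not tested. In shared peaks the median width rose over the same classes from 213 to 224, 233 and 244 bp. At 12 or more it was 299 bp in members and 362 bp in shared peaks. The sources used here do not say whether reads with the same position were removed before peak calling.

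**Figure D2:**
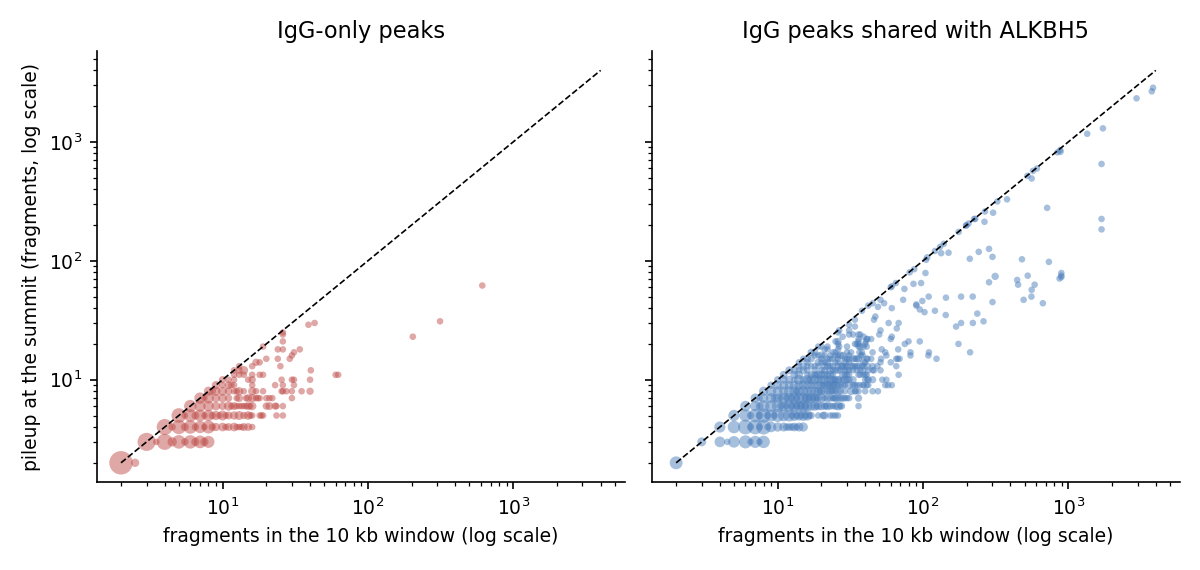
Pileup at the summit (fragments) against the fragments implied for the surrounding 10 kb window, both on log scales, for IgG-only peaks (left) and shared IgG peaks (right), with larger points for more peaks. On the dashed line all fragments of the window are at the summit, as in 49.8% of IgG-only and 7.07% of shared peaks. Above a pileup of 2, where nearly all peaks are lone, the shares are 31.3% and 5.37%.

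Members lay mostly away from the ends of genes. Summits within 1 kb of where a protein-coding gene starts or stops, called gene ends here, numbered 166 of 1535 (10.8%, interval 9.30 to 12.5), beside 34% of the whole IgG list. With 50% of each peak required to be shared, the share of IgG-only peaks there was 34.1%. A further 624 (40.7%) were inside protein-coding genes, 131 (8.53%) inside other annotated genes and 614 (40.0%) between genes. The annotated span of the chromosomes is 2.93% gene ends, 36.5% inside protein-coding genes, 7.78% inside other genes and 52.7% between genes. The share at gene ends was thus above the share of the bases, and the share between genes below it. Of shared IgG peaks, 53.3% (51.0 to 55.6) had such a summit. The gap between members and shared peaks stood at each height. At a pileup of 2, 5% of members (3.12 to 7.54) and 42.4% of shared peaks (25.5 to 60.8) were at gene ends. At 4 the shares were 16.6% (12.4 to 21.5) and 63.2% (57.3 to 68.8), and at 12 or more 6.25% (0.766 to 20.8) and 20.6% (16.1 to 25.7), where the intervals overlap. Members were chosen by missing a list that gathers at gene ends itself, so this difference describes the split and supports nothing.

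Where members did lie near a transcript start, they stood less close to it. Starts were listed for 17491 of 21883 protein-coding genes and for lncRNAs, with chromosome 18 not used. Of 150 members within 1 kb of a start, 23 (15.3%, 9.98 to 22.1) were within 100 bp, beside 33.6% (30.5 to 36.7) of shared peaks and 41.9% (40.5 to 43.3) of ALKBH5-only peaks. The median distance within that 1 kb was 291 bp for members, 153 bp for shared peaks and 136 bp for ALKBH5-only peaks. Of all ALKBH5 peaks within 1 kb of a start, 42.3% were within 100 bp. Members were chosen by missing that list, so these differences describe the split and support nothing. Upstream of the start lay 67 of the 150 (44.7%, 36.6 to 53.0).

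**Figure D3:**
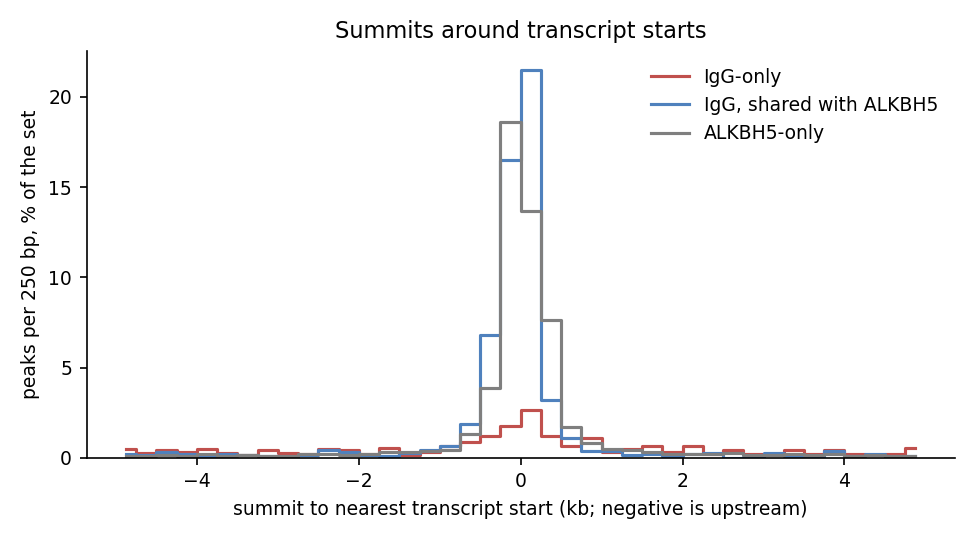
Peaks per 250 bp as a percent of each set, by signed distance from the summit to the nearest listed transcript start in kb, negative upstream. The IgG-only line peaks at 2.64% in the 250 bp after the start, where shared IgG peaks reach 21.5%.

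The share of members at gene ends was highest beside an ALKBH5 peak, although 57 of the 166 gene-end members (34.3%) had one within 1 kb and the others did not. The median member was 42874 bp from the nearest ALKBH5 peak, 138 (8.99%, 7.61 to 10.5) had one within 1 kb, and 33 had none within 1000 kb. Of the 88 members less than 0.3 kb from an ALKBH5 peak, 46 (52.3%, 41.4 to 63) were at a gene end. The share was 22.0% (11.5 to 36.0) at 0.3 to 1 kb, 10.9% (6.90 to 16.2) at 1 to 10 kb, 11% at 10 to 50 kb and 6.40% at 50 to 200 kb. Of the 300 members more than 200 kb away, 8 were at a gene end (2.67%, 1.16 to 5.19), beside 2.93% of the bases. Of all ALKBH5 peaks 49.0% had a summit at a gene end themselves. A member close to one is therefore often near a gene end by its place alone. The trend describes where the ALKBH5 list lies and supports nothing about members. Lone stacks went the other way, with 18.2% at under 0.3 kb, 10.0% at 0.3 to 1 kb, 26.6% at 1 to 10 kb, 45.8% at 10 to 50 kb, 59.2% at 50 to 200 kb and 74.0% beyond. Members with a pileup of 2, nearly all of them lone, made up 11.4%, 10.0%, 13.5%, 26.9%, 31.8% and 38.3% of the same classes. Peak height thus differed between the classes, and its part in the lone shares was not tested. The window of a member near an ALKBH5 peak also held more IgG fragments, with a median of 8 under 0.3 kb and 3 beyond 200 kb. The nearest ALKBH5 peaks had similar median heights throughout, from 7 to 10 fragments.

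**Figure D4:**
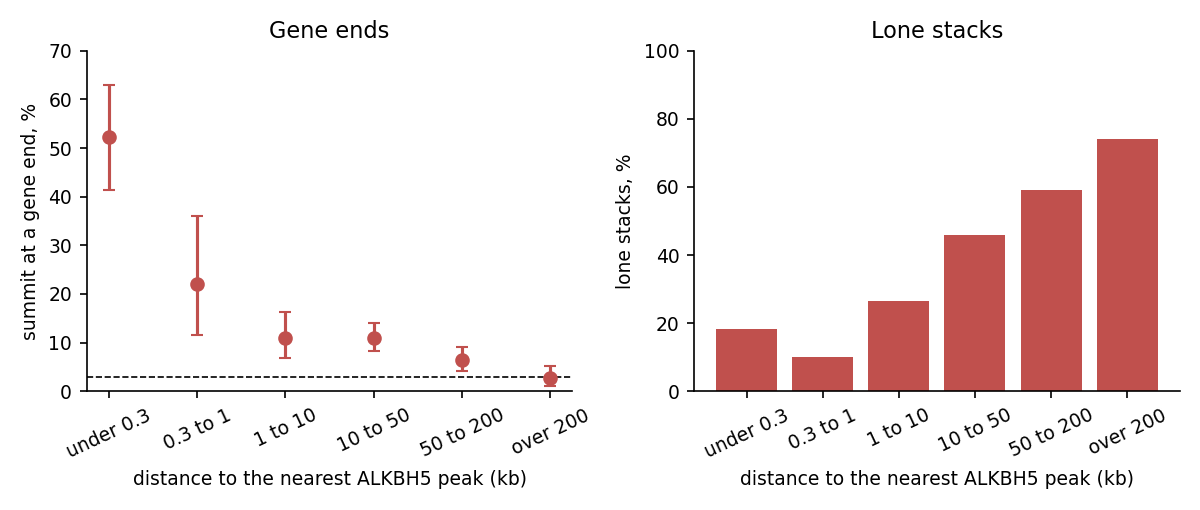
Left, percent of IgG-only peaks with a summit within 1 kb of a protein-coding gene end, by distance to the nearest ALKBH5 peak in kb, with 95% exact binomial intervals and a dashed line at the 2.93% of bases that are gene ends. Of all ALKBH5 peaks 49.0% are at gene ends themselves. Right, percent of lone stacks in the same classes, which was 18.2% under 0.3 kb and 74.0% over 200 kb. Members with a pileup of 2, nearly all lone, were 11.4% and 38.3% of these 2 classes.

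The rule turns on 1 bp, and some members only just met it. The member at 90637822 to 90638085 on chromosome 11 touches an ALKBH5 peak that starts at the next base. It lies at the start of Stxbp4, beside the divergent gene Cox11, an assembly factor of cytochrome oxidase, and had a pileup of 5 beside 8 in ALKBH5. Others lay 1 bp from an ALKBH5 peak at Ccdc93, a subunit of an endosomal sorting complex, and 3 bp away at Vcpip1, a deubiquitinase, and at Lrrc24. Just outside the rule, the IgG peaks near Tef, a circadian transcription factor, Gstcd and Cldn4, a tight junction protein, shared 1, 2 and 2 bp with an ALKBH5 peak, and a peak 101673 bp from Kitl and one at Txnl1 shared 8 bp. Pileups were 3 to 6 just inside and 3 to 8 just outside.

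A pileup of 12 or more was reached by 32 members, 2 of them at gene ends, with folds of 4.22 to 16.8, a median width of 299 bp and a median of 79.3% of the window's fragments at the summit. They were wider than members as a whole, whose median was 215 bp. Of the 32, 19 were at least 10 kb from any ALKBH5 peak. The highest fold, 16.8, belonged to a peak on chromosome 6 at 24956877 to 24957076, 895 bp upstream of Tmem229a, where 25 of 26 fragments stacked within 200 bp. The nearest ALKBH5 peak was 25647 bp away. A peak inside Rubcn, which encodes the autophagy regulator Rubicon, had a pileup of 29 and a fold of 16.5, with an ALKBH5 peak of pileup 11 at 1615 bp. Inside Myof, the membrane repair protein myoferlin, a stack of 30 in 203 bp had a fold of 16.3. On chromosome 13, at 100945399 to 100945797, 24 of 26 fragments stacked 112090 bp from the zinc transporter gene Slc30a5, with a fold of 16.2. At 134022411 to 134022644 on chromosome 1, 14752 bp upstream of Fmod, a collagen-binding proteoglycan, all 19 fragments of the window were at the summit (fold 14.3).

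The other 5 of the 10 highest folds ran from 11.1 to 14.2. They lay 80305 bp from Septin9, a cytoskeletal GTPase (pileup 21), inside Aacs, which activates the ketone body acetoacetate for lipid synthesis (18), 127968 bp from the opioid receptor gene Oprm1 (18), inside Tmem219 (15), and 1862 bp from the ubiquitin ligase gene Smurf1 (18). The last had the tallest ALKBH5 neighbour of the 10, a peak of pileup 21 at 2353 bp. Among these 10, 1 was at a gene end, 4 were inside protein-coding genes and 5 were between genes.

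The members of highest pileup included 3 of another shape, with low folds in crowded windows. The tallest, with 62 fragments, lay at 3004568 to 3004784 on chromosome 9, 330539 bp from the nearest protein-coding gene end, in a window of 613 fragments. Its fold was 4.54, and an ALKBH5 peak of pileup 83 lay 851 bp away. A stack of 31 in Sik3, a salt-inducible kinase gene, stood in a window of 314 fragments with a fold of 4.22 and an ALKBH5 peak of pileup 41 at 469 bp. On chromosome 8, at 123614769 to 123614961, 23 of 204 fragments gave a fold of 4.54, with an ALKBH5 peak of pileup 42 at 1593 bp. In these 3 the summit held 9.88 to 11.3% of the window.

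The 10 widest members were 565 to 812 bp wide, with pileups of 3 to 15. They included an 812 bp peak in Mfn2, which fuses mitochondria (pileup 8), a 781 bp peak in Atl2, an endoplasmic reticulum GTPase (13), 748 bp in D630023F18Rik (15), 679 bp in Bphl (7) and 612 bp in the zinc finger gene Zfp648 (10). The summits of these 5 held 43.8 to 62.5% of their windows. All 10 widest were away from gene ends.

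An IgG-only peak lay within 1 kb of an end of 204 of the 21883 protein-coding genes, or 0.932%, and inside or within 1 kb of 789 genes, or 3.61%. These 789 genes were long, with a median of 63.2 kb against 17.2 kb for all protein-coding genes, and 743 of them had a single IgG-only peak. An ALKBH5 peak was also present inside or within 1 kb of 438 of them (55.5%), beside 39.2% of all protein-coding genes. An ALKBH5 peak was at an end of 84 of the 204 (41.2%), beside 31.1% of all, and a shared IgG peak at an end of 5 of the 204 (2.45%), beside 5.64% of all. Gene length, which differs between these sets, was not part of these counts. Members at gene ends had a median pileup of 4 and a median fold of 4.28, beside 3 and 3.76 for all members.

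After the Tmem229a peak, the highest fold at a gene end was 10.0, at Tlr4, the receptor for bacterial lipopolysaccharide. There 12 of 14 fragments stacked 320 bp from an end, 179 bp from an ALKBH5 peak of pileup 5. Elmo1, a regulator of cell engulfment and Rac, had a lone stack of 10 at 992 bp (fold 9.09). Prodh, proline dehydrogenase, had a pileup of 8 at 727 bp (7.31). Uros, an enzyme of heme synthesis, had a lone stack of 7 (6.98), and Sympk, a scaffold of RNA 3′ end processing, had a pileup of 7 at 47 bp from an ALKBH5 peak (6.85). Dexi followed with 6.29, then Ltb, the cytokine lymphotoxin beta, with a lone stack of 6 (6.22), Aifm2, which protects membranes from lipid oxidation (6.10), and Kcne1, a potassium channel subunit (5.99). Of the 10 genes, Tlr4, Prodh, Sympk and Dexi had an ALKBH5 peak within 1 kb of the IgG-only peak, and at the other 6 the nearest was over 20 kb away.

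In 7 lists no gene had an IgG-only peak inside or within 1 kb, where 3.61% of all protein-coding genes had one, so that lists of this size would hold few genes at that share. None of 25 hepatocyte identity genes, 20 genes of non-parenchymal liver cells, 19 neuronal genes, 84 cytosolic ribosomal protein genes, 63 replication-dependent histone genes, 22 major urinary protein genes or 69 protocadherin genes had one. By comparison, 11 of the 84 ribosomal genes, 9 of the 63 histone genes and 0 hepatocyte genes had a shared IgG peak at an end, beside 5.64% of all protein-coding genes. A peak list shows where Tn5 cut and not which genes were expressed, so these counts are no check of the cell type.

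In the m6A machinery 2 of 21 genes had a member, beside 3.61% of all genes. Ythdf2, a reader that sends m6A RNA to decay, had a stack of 2 fragments, the lowest listed, 225 bp from its start and 27 bp from an ALKBH5 peak. Igf2bp1, a reader that stabilises RNA, had a lone stack of 3 inside the gene. Alkbh5 and Fto had none. In glucagon signalling and gluconeogenesis 3 of 22 genes had one, each inside the gene and over 30 kb from an ALKBH5 peak. G6pc, the catalytic subunit of glucose-6-phosphatase, held a lone stack of 6 at 101369527 to 101369730 on chromosome 11 (fold 6.22). Ppargc1a, the coactivator PGC-1 alpha, held a lone stack of 5 (5.43), and Pde4d, a phosphodiesterase that degrades cAMP, 5 of 6 fragments (5.33).

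In EGFR, insulin and mTORC1 signalling 3 of 27 genes had members, all inside the gene, beside 3.61% of all protein-coding genes with a member. Egfr held a lone stack of 4, Irs1, an adaptor of the insulin receptor, a lone stack of 3, and Rptor, the scaffold of mTORC1, 2 peaks with pileups of 3 and 2. Among 27 immediate early and stress genes only Fosb, an AP-1 subunit, had a member, with a pileup of 8 in a window of 27 fragments. Cell cycle genes counted 2 of 28, a 2-fragment stack 72 bp from the start of Ccnb2, a mitotic cyclin, and a pileup of 4 inside Cdk6. Of 17 housekeeping genes Tbp, the TATA-binding protein, had a pileup of 4 at 335 bp from its start, 866 bp from an ALKBH5 peak. These counts of 1 to 3 genes per list rest on stacks of 2 to 8 fragments, and the 3.61% of all genes stands beside each. Gene length was not part of the list counts. Genes with a member had a median length of 63.2 kb against 17.2 kb for all protein-coding genes.

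Among the large gene families in which any gene had a member, the shares ran from 0.181% of olfactory receptor genes to 2.54% of Zfp genes, beside 3.61% of all protein-coding genes. Gene length was not part of these shares. Of 1106 olfactory receptor genes Olfr96 had a 2-fragment stack at an end and Olfr183 a lone stack of 3 inside. Of 353 vomeronasal receptor genes, Vmn2r1 had a pileup of 10 (fold 8.23) and Vmn2r72 a lone stack of 7 (6.98). Zinc finger genes of the Zfp series counted 10 of 394, led by Zfp648 (8.23), Zfp710 (6.66), Zfp184 (5.79) and Zfp608 (5.43), and 2 of the 10 had the peak at an end. Keratin genes counted 2 of 112, with folds of 4.96 at Krt222 and 4.44 at Krt28. Cytochrome P450 genes counted 2 of 97, Cyp2c38 and Cyp2c39, whose annotated spans overlap so that 2 of the peaks fall in both. Cyp2c genes are related in sequence, and how reads were placed among them was not tested.

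Only 4 protein-coding genes held 3 IgG-only peaks, and none held more. Besides Cyp2c39, whose annotated span is 222 kb, these were Dpp10, a potassium channel partner of 1514 kb, Zfhx3, a transcription factor gene of 682 kb, and Nsmce2, a SUMO ligase gene of 227 kb. The Dpp10 peaks had pileups of 3, 6 and 7, those in Zfhx3 2, 4 and 3, and those in Nsmce2 8, 10 and 3. Members touched 172 of 12727 lncRNA genes, 8 of 9944 pseudogenes, 1 of 1228 miRNA genes and none of 408 tRNA, 1004 snRNA, 1340 snoRNA or 63 rRNA genes. Summits classed as inside other annotated genes were 8.53% of members, beside 7.78% of the bases. Gene length was not part of the counts by class, so few or no genes touched is not a result about a class.

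Promoters touched by members were rich in CpG, as were those touched by the other peak sets. The 77 promoters had a median of 23 CpG dinucleotides in 300 bases (interquartile range 17 to 30) and 66 (85.7%) had at least 15. Promoters touched by shared IgG peaks had a median of 25, those touched by ALKBH5-only peaks 24, and all listed protein-coding promoters 13 (4 to 24), 46.8% of them with at least 15. Of the 62 peaks in promoters, 28 had an ALKBH5 peak within 1 kb. Their median pileup was 4 and their highest 8.

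**Figure D5:**
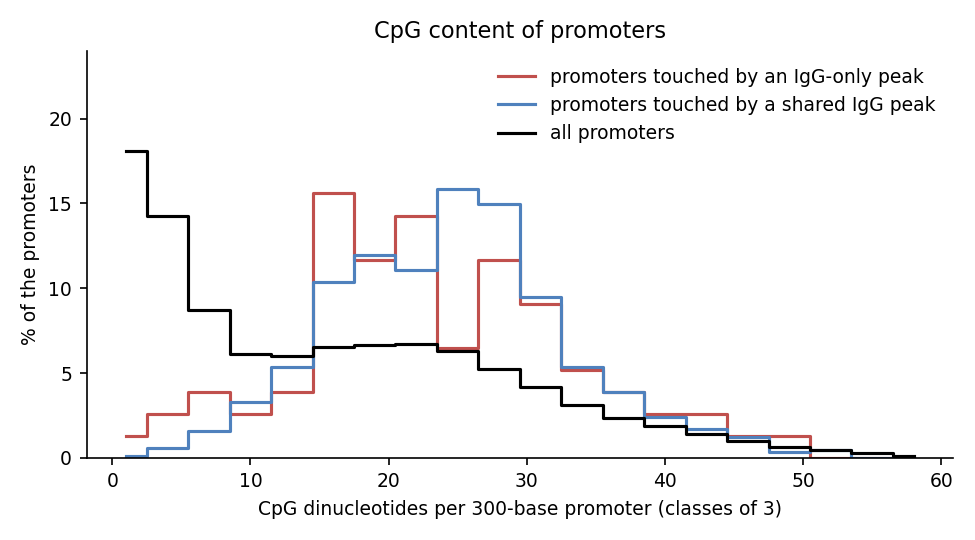
Percent of promoters by number of CpG dinucleotides in 300 bases, in classes of 3, for the 77 promoters touched by IgG-only peaks, the 877 touched by shared IgG peaks and all 21262 listed. Medians are 23, 25 and 13.

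Short motifs were searched on both strands of the 300 bases, and a match is a description of letters only. The 77 promoters came from 62 peaks, and some of them share bases, as at Zfp184. The intervals treat such promoters as separate, so they are too narrow. A promoter was searched whole also where the peak covers few of its bases. The GC box GGGCGG was in 67.5% of the 77 promoters (55.9 to 77.8) and in 46.2% of all, with 78.2% in those touched by shared IgG peaks and 73.9% in those touched by ALKBH5-only peaks. The ETS core CCGGAAG was in 26.0% (16.6 to 37.2) and in 11.6% of all. The E box CACGTG was in 16.9% (9.31 to 27.1) and 7.84% of all. In promoters touched by shared IgG and by ALKBH5-only peaks the ETS core was in 21.4% and 24.7%, and the E box in 10.8% and 11.9%. The CCAAT box was in 40.3% and 38.2%, and the cAMP response element TGACGTCA in 2 promoters and 2.23% of all. TATAAA was in 3 of 77 (3.90%, 0.811 to 11) against 12.6% of all, with 3.65% in those touched by shared IgG peaks and 4.62% in those touched by ALKBH5-only peaks. The AP-1 motif TGANTCA was in 0 of 77, which allows up to 4.68%, against 6.99% of all and 4.68% of those touched by shared IgG peaks. In the printed sequences the GC box is present at Dexi, Sdhd and Mtf2, the ETS core at Zfp184 and Sdhd, the CCAAT box at Dexi and Isg20 and the E box at Clcn7. Inside the peak lie the GC box at Mtf2, the CCAAT boxes at Dexi and Isg20 and an E box at Clcn7, which has another outside. The GC boxes at Dexi and Sdhd and the ETS cores at Zfp184 and Sdhd lie outside the peak. No motif contains another. The GC box, ETS core, E box and cAMP response element contain CG, and the part of CpG content in their counts was not tested.

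Members were spread over all chromosomes. There were 0.568 per Mb of annotated span in all, beside 0.680 shared IgG peaks and 4.56 ALKBH5 peaks. Among autosomes the density ran from 0.392 on chromosome 12 to 0.944 on chromosome 19. The X chromosome had 0.217 per Mb (37 peaks), with 0.164 for shared and 1.42 for ALKBH5 peaks, and Y had 1 member. The IgG-only share of IgG peaks was lowest on chromosome 17 (36.3%, 29.3 to 43.7) and reached 56.5% (47.6 to 65.1) on chromosome 13 and 56.9% (44.0 to 69.2) on X.

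Members seldom lay together. Another member lay within 10 kb of 40 of them (2.61%, 1.87 to 3.53), in 20 pairs, beside 5.77% (4.75 to 6.93) of shared IgG peaks with another shared peak as near. The closest pair, 221 bp apart on chromosome 13 near Eef1e1, a translation factor-associated gene, had pileups of 9 and 17. Pairs 231 bp apart in Arhgap20 (4 and 5), 565 bp apart in Nsmce2 (8 and 10) and 783 bp apart in Selenon (8 and 8) followed, with 650 bp in the Cyp2c38 and Cyp2c39 span (5 and 3). The chosen pairs are those under 1 kb and were named after their values were seen.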

How the data were processed

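CUT&Tag was measured in 1 ALKBH5-FLAG and 1 IgG library. Per the submitters' processing notes, the build was GRCm38 (mm10), and the tools named were R 3.4.1, SAMtools 1.3.1, Bowtie2 2.2.9 and MACS2, whose version and settings the sources used here do not give. Per the file headers, the deposited pileup is a coverage signal in fragments, and the deposited fold enrichment is a ratio to local background. The deposited −log10 p-value and q-value columns had lost their headers and were placed by the MACS2 layout. A Poisson tail of pileup and background gave the former within 1% plus 0.01 for 99.5% of IgG peaks. Total reads, and so depth, are unknown.

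Overlaps and distances were computed with Python 3.11.15, pandas 2.3.3, NumPy 2.4.6 and SciPy 1.17.1, tested on simulated intervals. Peaks sharing at least 1 bp counted as shared, and mitochondrial peaks were left out. Genes and promoters are from RefSeq tables of GRCm38.p6. Hepatocyte symbols matched for 25 of 26, and all symbols of the other named lists matched. Peaks named were the 10 of highest fold, of highest pileup, of highest fold at gene ends and of greatest width, the 5 nearest to an ALKBH5 peak, of which 1 is not reported here, and the 5 of least overlap. For lists of up to 30 genes each gene with a peak was named, for longer lists up to 4 by fold, and also genes with 3 or more peaks. Members and lists were chosen with earlier results of these data known. No test was possible between groups. Alternatives for overlap, thresholds and windows are in the closing section.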

Additional observations from a re-analysis of the deposited data

How the results depend on the processing

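Of 42 alternative values, 13 stayed within 1.5 times the count or inside the 95% interval of the reported share or median, and 29 did not. Requiring 50% of each peak to be shared raised the number of IgG-only peaks from 1535 to 2693, their share at gene ends to 34.1%, the genes with a gene-end peak to 1143, the median fold to 4.53, the share with an ALKBH5 peak within 10 kb to 55.3% and the share with another member within 10 kb to 4.42%, since partly overlapping peaks then count. Counting an ALKBH5 peak within 1 kb as shared gave 7.80% at gene ends, 134 genes and 13.7% within 10 kb of an ALKBH5 peak. Holding IgG peaks to a −log10 q of 3 or more left 564 peaks, 8.87% at gene ends, 63 genes, a median pileup of 5, a median fold of 5.43 and 1.42% with another member within 10 kb. At a fold of 5 or more there were 403 peaks, 9.18% at gene ends, 44 genes, a median pileup of 6 and a median fold of 5.99. Set against only the ALKBH5 peaks with a −log10 q of 5 or more, 15.3% were at gene ends, with 348 genes, a median fold of 4.28 and 10.7% within 10 kb of such a peak. Windows of 500 bp and 3 kb around gene ends gave 7.49% and 19.0%, and 3 kb gave 364 genes. Within 50 kb, 53.0% of members had an ALKBH5 peak and 9.19% another member. No paired analysis was possible because each group has 1 library. Stacks of 2 or 3 fragments and the unknown read totals limit what these peaks can show.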

Other observations

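The mitochondrial peaks, which the comparison leaves out, were shared throughout. All 5 IgG peaks on the mitochondrial genome overlapped an ALKBH5 peak, of which there were 6. Their pileups were 75 to 142 in IgG and 127 to 175 in ALKBH5, and their folds 2.01 to 3.34 and 1.53 to 2.35.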
